A study of Mus musculus with 2 samples.

Results

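The Oas family of interferon-induced genes was followed through the immune cells of the mouse spleen. Its members here were Oas1a, Oas2, Oas3, Oasl1 and Oasl2, taken by symbol from the feature lists of both libraries, and they are 5 of 32285 genes listed. Another 6 Oas genes in the lists (Oas1c, Oas1d, Oas1e, Oas1f, Oas1g and Oas1h) were read beside them, and Oas1b was not analysed here.

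The wild-type (WT) mice had all been injected intraperitoneally with 10000 iRBCs, an abbreviation that the labels do not spell out. They were then given Glutoborin, an agent the labels do not describe, or Vehicle, on days 2 and 4 after infection. Spleens were taken on day 5, and CD45+ cells (leukocytes) were sorted and sequenced as 1 Glutoborin library and 1 Vehicle library, by droplet single-cell RNA sequencing from the 3′ end of each transcript. Neither the strain and age of the mice nor the number pooled in a library was given in the sources used here. With 1 library per group there is no replicate check, and no test was run: the intervals given are exact 95% intervals for the counting of molecules alone, and they do not cover the spread between animals.

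Oligoadenylate synthetases are switched on by double-stranded RNA and link ATP into short 2-5A chains, a signal that leads to the cutting of viral and cellular RNA. The genes are induced by interferons through transcription factors that bind a promoter motif called the interferon-stimulated response element, so leukocytes hold more of these transcripts while interferon is acting on them. Oas1a, Oas2 and Oas3 are synthetases, the Oas3 protein being the largest of them, whereas Oasl1 and Oasl2 carry ubiquitin-like domains; mouse Oasl2 has kept synthetase activity, and mouse Oasl1 lacks it and blocks translation of the mRNA for Irf7.

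All members lie on mouse chromosome 5, in separate groups (GENCODE annotation on GRCm38, the assembly called mm10). Oasl2 (ENSMUSG00000029561, positions 114896936 to 114912234) and Oasl1 (ENSMUSG00000041827, 114923240 to 114937915) are neighbours on the plus strand, 11005 bases apart. Oas2 (ENSMUSG00000032690, 120730333 to 120749853), Oas3 (ENSMUSG00000032661, 120753098 to 120777661) and Oas1a (ENSMUSG00000052776, 120896256 to 120907521) are on the minus strand. Oas2 and Oas3 are 3244 bases apart, and 8 other genes stand between Oas3 and Oas1a. Oas2 overlaps Gm43068 and Oasl1 overlaps Gm13822, each on the opposite strand, and the sources used here do not say whether counting used strand.

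Because the members differed between the libraries in the same direction, their promoters are shown: 250 bases before to 50 bases after the start of the gene, 5′ to 3′, from RefSeq on GRCm38.p6, for the 4 of 5 members with an entry. Capitals mark a core of the interferon-stimulated response element, searched on both strands as GAAA, any 2 bases (NN) and GAAA again.
Oas1a: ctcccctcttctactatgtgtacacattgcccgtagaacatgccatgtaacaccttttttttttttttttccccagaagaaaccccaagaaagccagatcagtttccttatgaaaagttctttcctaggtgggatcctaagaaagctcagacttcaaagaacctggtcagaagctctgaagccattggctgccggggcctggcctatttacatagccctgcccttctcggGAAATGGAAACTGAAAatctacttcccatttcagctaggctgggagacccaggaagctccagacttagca
Oas3: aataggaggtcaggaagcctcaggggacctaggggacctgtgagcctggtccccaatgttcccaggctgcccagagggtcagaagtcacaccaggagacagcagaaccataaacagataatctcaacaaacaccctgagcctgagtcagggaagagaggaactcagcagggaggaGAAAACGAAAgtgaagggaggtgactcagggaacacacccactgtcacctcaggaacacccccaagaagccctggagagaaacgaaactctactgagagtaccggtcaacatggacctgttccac
Oasl1: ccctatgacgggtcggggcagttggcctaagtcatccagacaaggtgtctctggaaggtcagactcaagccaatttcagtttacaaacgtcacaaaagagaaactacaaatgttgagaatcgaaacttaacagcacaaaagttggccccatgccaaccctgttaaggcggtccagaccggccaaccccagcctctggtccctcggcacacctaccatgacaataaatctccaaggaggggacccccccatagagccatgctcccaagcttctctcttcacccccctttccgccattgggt
Oasl2: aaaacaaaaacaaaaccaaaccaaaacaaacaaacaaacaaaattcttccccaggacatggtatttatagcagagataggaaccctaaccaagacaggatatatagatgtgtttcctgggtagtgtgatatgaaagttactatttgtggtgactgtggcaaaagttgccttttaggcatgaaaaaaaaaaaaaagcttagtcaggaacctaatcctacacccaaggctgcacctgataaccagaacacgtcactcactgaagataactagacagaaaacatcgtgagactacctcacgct
Oas1a held 2 overlapping matches, whose first bases are 20 and 14 bases before the start, and Oas3 held 1 match 75 bases before it. Oasl1 and Oasl2 had no match, which says only that these letters are not in these windows. The motif was found in 1131 of 32851 promoters of the same length (3.44%). Oas1g and Oas1c also held 2 matches each, those of Oas1c on the opposite strand, whereas Oas1f and Oas1h held none.

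The deposited libraries held 9646 barcodes in Glutoborin and 8204 in Vehicle. The median per barcode was 4792 UMIs (unique molecular identifiers, each standing for 1 captured RNA molecule) in Glutoborin and 5020.5 in Vehicle. Barcodes with at least 10% mitochondrial UMIs were 4.07% of the Glutoborin and 18.5% of the Vehicle library and were left out. After called doublets were also removed, 8906 Glutoborin cells with 5131 UMIs of the 5 members and 6493 Vehicle cells with 12667 remained. The kept cells were deeper in Vehicle, with a median of 5688 UMIs, against 4811 in Glutoborin. The libraries shared 24 barcodes. Cells were clustered and named by marker genes, and a class is named for the type whose markers its cells carry, without further proof of identity. All 6 B cell markers were detected in the B cells of each library, with 8800 CPM in Glutoborin and 8143 in Vehicle. In CD8 T cells the same 6 markers were all detected too, with 114 CPM in Glutoborin and 177 CPM in Vehicle. All 7 NK cell markers were found in NK cells, and all 7 classical monocyte markers in classical monocytes. CD8 T cells also had a UMI of each, so detection alone does not tell classes apart. NK cell markers summed to 5518 CPM in Glutoborin and 4951 CPM in Vehicle NK cells. In CD8 T cells they summed to 380 CPM in Glutoborin and 311 CPM in Vehicle. Classical monocyte markers summed to 37557 CPM in Glutoborin and 35934 CPM in Vehicle monocytes. In CD8 T cells they had 1013 CPM in Glutoborin and 1130 CPM in Vehicle. Levels are UMIs per 1000000 UMIs of the class in that library (CPM), from 3′ ends and not scaled by length.

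Every class with enough cells had less of the family in Glutoborin. Over all kept cells the members summed to 97.7 CPM in Glutoborin and 287 CPM in Vehicle, a log2 ratio of -1.55 (interval -1.60 to -1.51). The sum was lower in each of the 6 named classes with at least 100 cells per library and in each of the 6 smaller ones with at least 20. Among the 60 values of 5 members in these 12 classes, 56 gave a ratio, 54 of these were below 0 on the log2 scale, and 42 had an interval wholly below 0. None had an interval wholly above 0. The exceptions to the direction were Oas1a in neutrophils, with 6 UMIs in Glutoborin and 1 in Vehicle, and Oas1a in red pulp macrophages, with 4 UMIs in each.

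**Figure D1:**
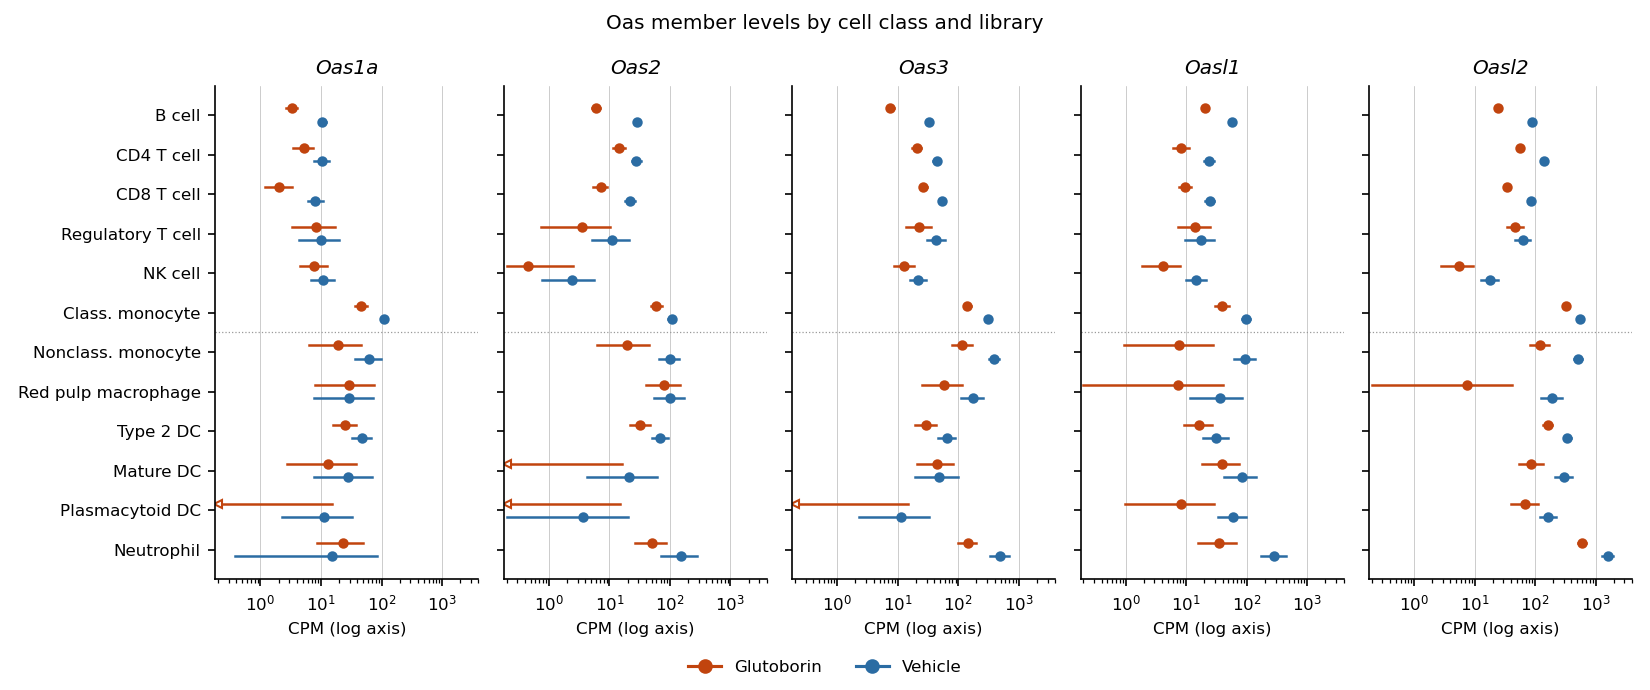
Level of each Oas member (CPM, log axis) in 12 cell classes, Glutoborin (orange) above Vehicle (blue); points are library values, bars are exact 95% Poisson intervals cut off at the left edge, and open triangles mark 0 UMIs. Classical monocytes rank 1st to 3rd of the 12 classes in each panel and library, and the Glutoborin point lies left of the Vehicle point in all but 2 of the pairs where both libraries had UMIs.

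B cells, the largest class with 5171 Glutoborin and 3551 Vehicle cells, showed the widest gap among the 6 larger named classes, at 61.3 CPM for the family in Glutoborin and 219 CPM in Vehicle (log2 ratio -1.84, interval -1.92 to -1.75). Among the synthetases, Oas2 had 156 UMIs (6.0 CPM) in Glutoborin and 586 UMIs (28.9 CPM) in Vehicle. Oas3 had 196 UMIs (7.54 CPM) in Glutoborin and 673 UMIs (33.2 CPM) in Vehicle. These were the steepest differences of the family in B cells, 4.81-fold lower for Oas2 (log2 ratio -2.27, interval -2.53 to -2.01) and 4.40-fold lower for Oas3 (-2.14, interval -2.37 to -1.91). Oas1a, the least abundant member there, had 86 UMIs (3.31 CPM) in Glutoborin and 212 UMIs (10.5 CPM) in Vehicle (log2 ratio -1.66, interval -2.04 to -1.29).

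The ubiquitin-like members made up most of the family transcripts of B cells. Oasl2 had 630 UMIs (24.2 CPM) in Glutoborin and 1787 UMIs (88.1 CPM) in Vehicle, 3.64-fold lower (log2 ratio -1.86, interval -2.00 to -1.73). Oasl1 had 525 UMIs (20.2 CPM) in Glutoborin and 1181 UMIs (58.3 CPM) in Vehicle. Its log2 ratio of -1.53 (interval -1.68 to -1.38) was the smallest of the 5 in size, and its interval did not overlap those of Oas2, Oas3 and Oasl2. With a fold of at least 1.5 counted as lower, all 5 members were lower in B cells, where 3.23% of 10704 genes with at least 50 UMIs were lower and 2.68% were higher by that fold. None of the members was higher. The median log2 ratio was -1.86 for the members and 0.02 for all those genes. Ranked from the lowest ratio, Oas2 stood 14th and Oasl1 51st of the 10704.

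The gap ran through the subtypes of B cells. Transitional B cells, newly arrived from the bone marrow, had the highest family level of the 4 named subtypes, at 92.0 CPM in Glutoborin and 336 CPM in Vehicle (log2 ratio -1.87). Follicular B cells had 60.5 CPM in Glutoborin and 219.6 CPM in Vehicle (-1.86). Marginal zone B cells, which screen the blood, had 57.4 CPM in Glutoborin and 161 CPM in Vehicle (-1.49), and B-1 B cells had 63.9 CPM in Glutoborin and 192 in Vehicle (-1.59). The intervals of marginal zone cells (-1.69 to -1.28) and follicular cells (-1.99 to -1.73) did not overlap. In follicular cells Oas2 was 6.65-fold lower, with 53 UMIs in Glutoborin and 181 in Vehicle; in marginal zone cells it had 44 UMIs in Glutoborin and 109 in Vehicle and was 3.32-fold lower.

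The family was lower in 17 of 17 B cell clusters, with log2 ratios between -2.85 and -1.29, each with an interval below 0. Cluster B11, which was led by interferon-induced genes such as Ifit2 and Slfn5 and had the highest family level of the B clusters, reached 151 CPM in Glutoborin and 370 CPM in Vehicle (log2 ratio -1.29). The clusters held unequal parts of the B cells: B11 made up 3.29% of them in Glutoborin and 18.5% in Vehicle, where it held 24.3% of the family UMIs, and the follicular cluster B12 made up 15.1% in Glutoborin and 4.34% in Vehicle. Without B11 the family ratio of B cells was -1.72. The T cell clusters with at least 20 cells per library were lower in 16 of 16, between -2.46 and -0.29. Of these, 15 had an interval below 0. Smaller T cell clusters, such as T17 described below, are not in this count.

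T cells of 4 clusters that got no finer name, 232 in Glutoborin and 221 in Vehicle, had a wider gap than any named class, at 57.9 CPM in Glutoborin and 307 CPM in Vehicle (log2 ratio -2.41, interval -2.72 to -2.11). Among the T cells with no finer name was cluster T17, led by interferon-induced genes such as Rsad2 and Ifit1. It had 4 cells and 20 family UMIs in Glutoborin and 58 cells and 422 family UMIs in Vehicle. Without T17 the ratio was -1.48 (interval -1.85 to -1.12). Within T17 it was -0.34 (interval -1.07 to 0.30).

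**Figure D2:**
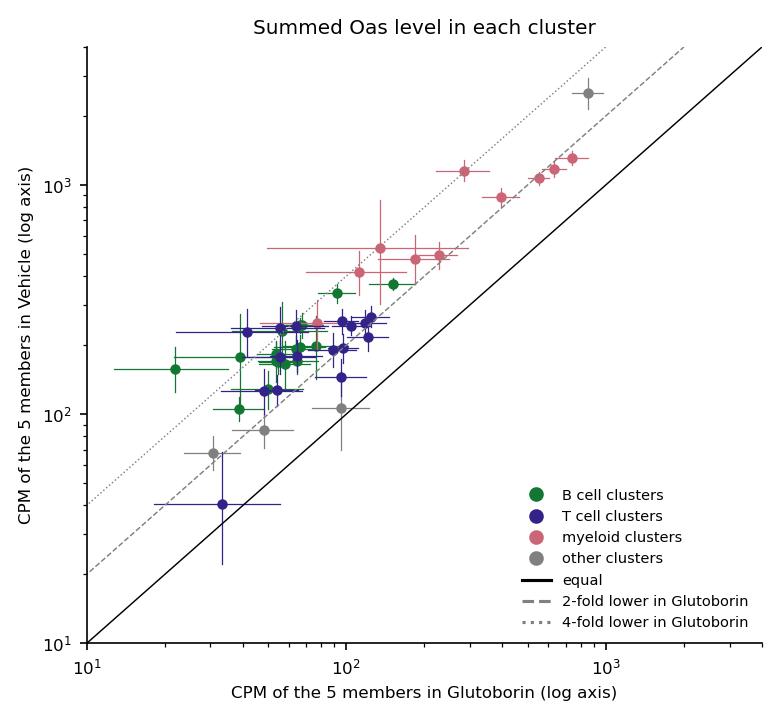
Summed level of the 5 members (CPM, log axes) in each cluster with at least 20 cells per library, Glutoborin on the horizontal and Vehicle on the vertical axis; bars are exact 95% Poisson intervals and lines mark equality, 2-fold and 4-fold lower levels in Glutoborin. Every cluster lies above the line of equality, the B cell clusters mostly between the dashed and dotted lines.

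All 5 transcripts were counted in T cells, with Oasl2 ahead. With cells thinned to 2000 UMIs, some were found in smaller shares of cells than the neutrophil gene S100a9, as given below. In CD4 T cells (1115 cells in Glutoborin, 809 in Vehicle) Oasl2 had 319 UMIs (57.0 CPM) in Glutoborin and 680 UMIs (142 CPM) in Vehicle, 2.49-fold lower (log2 ratio -1.32, interval -1.51 to -1.12). Oas3 had 115 UMIs (20.6 CPM) in Glutoborin and 212 UMIs (44.3 CPM) in Vehicle (-1.11), and Oas2 had 82 UMIs in Glutoborin and 134 in Vehicle (-0.93). Oasl1, which was scarce in these cells, had 46 UMIs (8.22 CPM) in Glutoborin and 114 UMIs (23.8 CPM) in Vehicle and the largest ratio of the members in size, -1.53 (interval -2.06 to -1.03). Oas1a had 29 UMIs in Glutoborin and 50 in Vehicle (-1.01, interval -1.72 to -0.32). With cells thinned to 2000 UMIs it had 15 UMIs in Glutoborin and 8 in Vehicle, a ratio of 0.45, so its direction in CD4 T cells was not stable. Unthinned, all 5 were at least 1.5-fold lower, as were 2.57% of 8586 genes.

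CD8 T cells (1104 cells in Glutoborin, 755 in Vehicle) differed from CD4 T cells in the place of Oas3. It made up 33.1% of their family UMIs in Glutoborin and 27.1% in Vehicle, whereas in CD4 T cells it made up 19.5% in Glutoborin and 17.8% in Vehicle. Oas3 had 219 UMIs (26.5 CPM) in Glutoborin and 320 UMIs (52.8 CPM) in Vehicle, with a log2 ratio of -1.0 (interval -1.25 to -0.74), the smallest in size of the 5. Oasl2 had 286 UMIs (34.6 CPM) in Glutoborin and 529 UMIs (87.4 CPM) in Vehicle (-1.34), and Oasl1 had 80 UMIs in Glutoborin and 148 in Vehicle (-1.34). The low-count synthetases stood furthest apart: Oas1a had 17 UMIs in Glutoborin and 49 in Vehicle (-1.98, interval -2.86 to -1.15) and Oas2 had 59 UMIs in Glutoborin and 133 in Vehicle (-1.62, interval -2.09 to -1.17). Oas1a had the lowest ratio of all 8993 genes with at least 50 UMIs in CD8 T cells, of which 2.64% were at least 1.5-fold lower; all 5 members were among these.

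Regulatory T cells, which restrain other T cells, had the smallest gap for the family, 95.8 CPM in Glutoborin and 145 CPM in Vehicle (log2 ratio -0.60, interval -1.02 to -0.18), from 81 UMIs in 155 Glutoborin cells and 117 UMIs in 129 Vehicle cells. Of the 2 members with at least 50 UMIs in both libraries together, Oas3 was lower, with 19 UMIs in Glutoborin and 35 in Vehicle (-0.95, interval -1.84 to -0.10). Oasl2 had 40 UMIs in Glutoborin and 51 in Vehicle, and its interval (-1.05 to 0.21) held 0. The share of genes lower there was 5.07%. After thinning no member could be called in regulatory T cells: the most abundant, Oasl2, had 19 UMIs in Glutoborin and 16 in Vehicle, under the 50 needed. Without the 10 cells of each library with the most family UMIs, 0 members were called lower, and that step also takes away UMIs. The interval of the family ratio did not overlap those of CD4 and CD8 T cells, the other T cell classes compared. It did overlap those of several other classes, such as classical monocytes (-1.05 to -0.83), NK cells (-1.59 to -0.72) and type 2 dendritic cells (-1.30 to -0.82).

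NK cells had the lowest family level of the 12 classes in each library, 30.7 CPM in Glutoborin and 67.9 CPM in Vehicle (log2 ratio -1.15, interval -1.59 to -0.72). Oas2 was almost missing there, with 1 UMI in Glutoborin and 5 in Vehicle. Oas3 led instead, with 28 UMIs (12.8 CPM) in Glutoborin and 46 UMIs (21.9 CPM) in Vehicle (-0.77, interval -1.50 to -0.06), and Oasl2 had 12 UMIs in Glutoborin and 38 in Vehicle (-1.72, interval -2.79 to -0.75). Both members with at least 50 UMIs were at least 1.5-fold lower, beside 7.04% of 7018 genes. After thinning the whole family had 18 UMIs in Glutoborin and 23 in Vehicle, so no member could reach 50 UMIs and be called. Without the 10 cells of each library with the most family UMIs, 0 members were called lower, and that step also takes away UMIs.

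**Figure D3:**
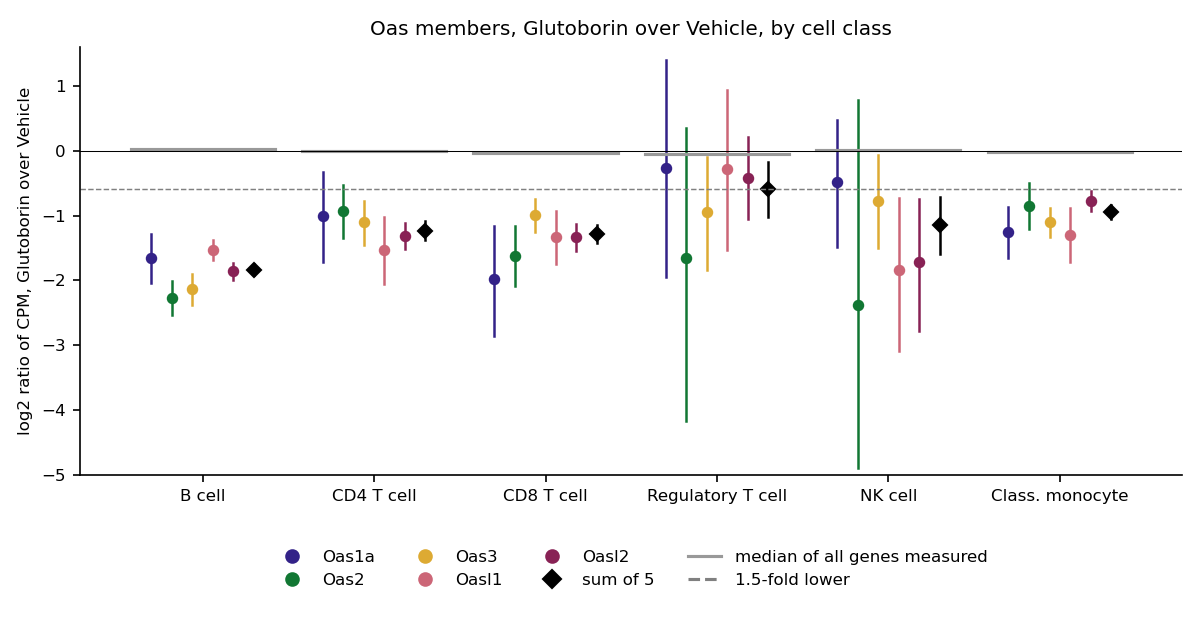
Log2 ratio of CPM, Glutoborin over Vehicle, for each member and for their sum in 6 cell classes, with exact 95% intervals for counting error; grey bars are the median of all genes with at least 50 UMIs and the dashed line marks 1.5-fold lower, and the interval of Oas2 in NK cells runs below the axis. All 30 member points lie below 0, with the widest intervals in regulatory T and NK cells.

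Monocytes and neutrophils held more of the family than any lymphocyte class, in each library. Classical monocytes (127 cells in Glutoborin, 187 in Vehicle), inflammatory cells recruited from the blood, had 610.4 CPM in Glutoborin and 1173 CPM in Vehicle (log2 ratio -0.94, interval -1.05 to -0.83). Oas3 had 225 UMIs (142 CPM) in Glutoborin and 649 UMIs (305 CPM) in Vehicle (-1.11, interval -1.33 to -0.88). Oas1a, far more abundant here than in lymphocytes, had 73 UMIs (46.0 CPM) in Glutoborin and 234 UMIs (110.0 CPM) in Vehicle (-1.26, interval -1.66 to -0.87).

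The remaining members differed less or rested on fewer molecules in these monocytes. Oas2 had 95 UMIs (59.8 CPM) in Glutoborin and 229 UMIs (108 CPM) in Vehicle (-0.85, interval -1.21 to -0.50). Oasl2, the most abundant member, had 513 UMIs (323 CPM) in Glutoborin and 1177 UMIs (553 CPM) in Vehicle and the smallest ratio in size (-0.78, interval -0.93 to -0.62). Oasl1 had 63 UMIs (39.7 CPM) in Glutoborin and 207 UMIs (97.3 CPM) in Vehicle (-1.29, interval -1.72 to -0.88). All 5 were at least 1.5-fold lower, beside 6.50% of 6431 genes. The family was lower in each of the 3 classical monocyte clusters, at -0.96, -0.89 and -0.83. The 7 neutrophil markers summed to 414 CPM in the Glutoborin and 1354 CPM in the Vehicle monocytes, and 98.1% of the 1282 S100a9 UMIs in Vehicle lay in 10 cells; their part in the result was not tested.

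Nonclassical monocytes, which patrol vessels, had the widest family gap of the 12 named classes, 283 CPM in Glutoborin and 1156 CPM in Vehicle (log2 ratio -2.03, interval -2.41 to -1.66), from 44 Glutoborin and 53 Vehicle cells. Oasl2 had 31 UMIs in Glutoborin and 149 in Vehicle (-2.09), Oas3 had 30 in Glutoborin and 114 in Vehicle (-1.75), and Oasl1 had 2 in Glutoborin and 27 in Vehicle (-3.58, interval -6.69 to -1.58). The interval of the family ratio did not overlap that of classical monocytes. Both members with at least 50 UMIs were lower, beside 9.22% of 1854 genes.

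Neutrophils had the highest family level in each library, 853 CPM in Glutoborin and 2519.9 CPM in Vehicle (log2 ratio -1.56, interval -1.86 to -1.27), in 61 Glutoborin and 22 Vehicle cells. Oasl2 supplied most of it, with 157 UMIs (603 CPM) in Glutoborin and 106 UMIs (1589.9 CPM) in Vehicle (-1.40). Oasl1 had 9 UMIs in Glutoborin and 19 in Vehicle (-3.04, interval -4.37 to -1.83), and Oas3 had 37 UMIs in Glutoborin and 32 in Vehicle (-1.76). The neutrophil background was the highest of the classes: 14.0% of 864 genes were lower, as were both members with at least 50 UMIs.

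Dendritic cells and macrophages were lower in Glutoborin as well, at low counts. Type 2 dendritic cells, which present antigen to CD4 T cells, had 266 CPM in Glutoborin and 554 CPM in Vehicle (log2 ratio -1.06), and 4 of 4 members with at least 50 UMIs were lower, beside 9.06% of genes. The myeloid gene Lyz2 went the other way in these cells, with 1005 CPM in Glutoborin and 112 CPM in Vehicle (3.17), and its part in the result was not tested. Mature dendritic cells had 183 CPM in Glutoborin and 477 in Vehicle (-1.38), with Oasl2 lower, at 20 UMIs in Glutoborin and 43 in Vehicle, beside 9.59% of genes. A few cells carried this: the median mature dendritic cell had 0 family UMIs in each library, and 1 cell held 22 of the 42 in Glutoborin and 1 cell 27 of the 69 in Vehicle. Plasmacytoid dendritic cells, known as the body's main interferon-alpha producers, had 77.0 CPM in Glutoborin and 249 CPM in Vehicle (-1.69), and only Oasl2, lower at 17 UMIs in Glutoborin and 44 in Vehicle, was measured, beside 8.13% of genes. Oas1a, Oas2 and Oas3 had no UMI among 246852 in the Glutoborin plasmacytoid cells, and 3, 1 and 3 UMIs in the Vehicle cells. Red pulp macrophages, which clear worn red cells, had 185 CPM in Glutoborin and 530 CPM in Vehicle (-1.52, interval -2.24 to -0.85); Oasl2 had 1 UMI in Glutoborin and 27 in Vehicle, and Oas2 had 11 in Glutoborin and 14 in Vehicle. Hbb-bs, a haemoglobin gene, had 651 CPM in the Glutoborin and 7.16 CPM in the Vehicle macrophages, and its part was not tested.

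The order of the classes was much the same in the libraries. Neutrophils led, followed in Glutoborin by classical and then nonclassical monocytes, the steps between these 3 being larger than their counting error. In Vehicle, classical and nonclassical monocytes stood level at 1173 and 1156 CPM, and their order could not be told from counting error. Type 2 dendritic cells, red pulp macrophages and mature dendritic cells followed in that order in each library, with no neighbouring pair apart beyond counting error. B cells stood 11th of 12 in Glutoborin and 9th in Vehicle, above CD8 T cells (195 CPM) and regulatory T cells (145 CPM) in Vehicle but below both in Glutoborin.

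The mix of members differed between classes. Oasl1 made up 33.0% (interval 30.7 to 35.3%) of the family UMIs of B cells in Glutoborin and 26.6% (25.3 to 27.9%) in Vehicle. In CD4 T cells its share was 7.78% in Glutoborin and 9.58% in Vehicle, and in classical monocytes 6.50% in Glutoborin and 8.29% in Vehicle. Oasl2 was the largest single part in B cells, CD4 and CD8 T cells, monocytes and neutrophils, reaching 70.7% in Glutoborin and 63.1% in Vehicle neutrophils. NK cells were led by Oas3 in each library, at 41.8% (29.8 to 54.5%) in Glutoborin and 32.2% (24.6 to 40.5%) in Vehicle. Oas1a made up 25.4% (15.5 to 37.5%) of their family UMIs in Glutoborin and 16.1% in Vehicle, and Oasl2 26.6% (19.5 to 34.6%) in Vehicle. The Oas3 interval overlapped that of Oas1a in Glutoborin and that of Oasl2 in Vehicle, so Oas3 did not stand apart beyond counting error.

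**Figure D4:**
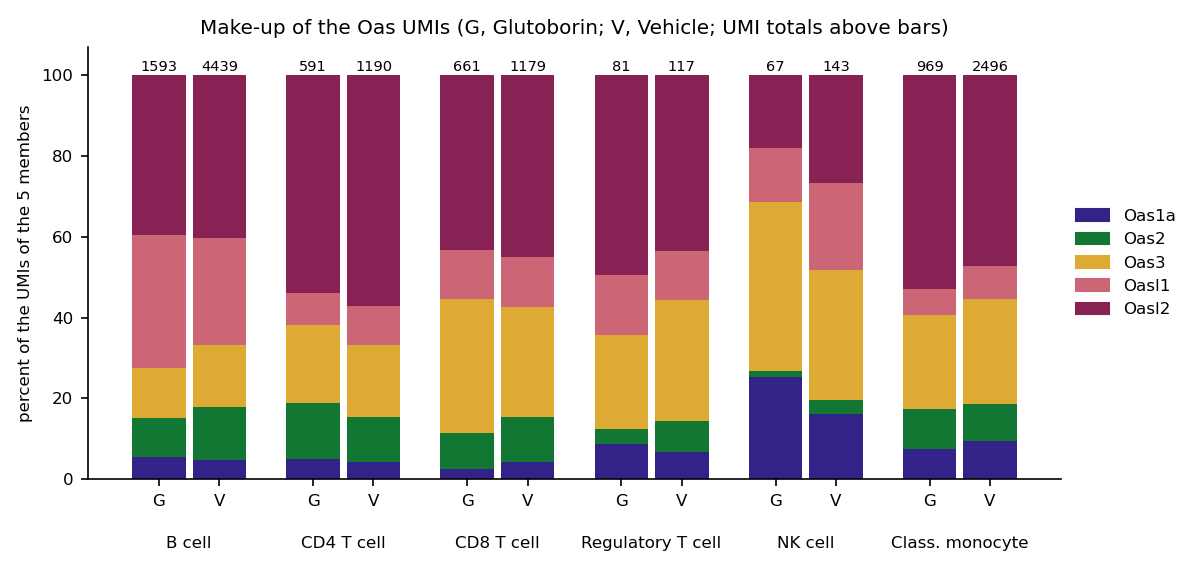
Share of each member in the UMIs of the 5 members (percent), by cell class, with the Glutoborin bar left of the Vehicle bar and the number of UMIs above it. The Oasl1 part is wider in B cells than in CD4 T cells or classical monocytes, and the Oas3 part is the largest of the 5 in NK cells.

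Per cell, the members were thinly spread in lymphocytes. With each cell thinned to 2000 UMIs, 11.7% of B cells (interval 10.8 to 12.6%) had a UMI of any member in Glutoborin and 32.9% (31.4 to 34.5%) in Vehicle; unthinned, the shares were 23.0% in Glutoborin, at a median of 4113 UMIs, and 57.5% in Vehicle, at 4757. The neutrophil gene S100a9, which B cells should lack, was found in 3.09% of the thinned B cells in Glutoborin and 5.75% in Vehicle. At the level of single members this background mattered: Oas1a (0.704%), Oas2 (1.17%) and Oas3 (1.80%) in Glutoborin B cells were below the S100a9 share, as were Oas1a (2.26%) and Oas2 (5.49%) in Vehicle, so those shares cannot be read as shares of expressing cells. The same limit held in T and NK cells. In CD4 T cells Oas1a (1.36%) and Oasl1 (1.27%) were below S100a9 (2.27%) in Glutoborin, as was Oas1a (0.995%, S100a9 3.61%) in Vehicle. In CD8 T cells Oas1a, Oas2 and Oasl1 were below S100a9 in each library (2.72% in Glutoborin, 4.65% in Vehicle). In NK cells no member was above S100a9 in either library (3.17% in Glutoborin, 3.54% in Vehicle). Thinned shares for the family were 17.9% in Glutoborin and 36.4% in Vehicle CD4 T cells, 13.6% in Glutoborin and 30.1% in Vehicle CD8 T cells, and 72.4% in Glutoborin and 88.7% in Vehicle classical monocytes. Unthinned, every classical monocyte had a family UMI, with a median of 7 per cell in Glutoborin and 13 in Vehicle.

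Cells with several members at once were mostly in Vehicle. At 2000 UMIs, 3 or more members were detected in 2.36% of Glutoborin and 19.9% of Vehicle classical monocytes, and in 4 of 5113 Glutoborin and 39 of 3498 Vehicle B cells. Among Glutoborin B cells, 3.85% (interval 1.86 to 6.96%) of those with an Oasl2 UMI also had one for Oas3, as did 1.69% (1.35 to 2.09%) of those without Oasl2. Among Vehicle B cells the shares were 12.2% (9.61 to 15.1%) with Oasl2 and 4.99% (4.23 to 5.85%) without it. These intervals overlapped in Glutoborin and did not in Vehicle. The Oasl1 shares were also higher with Oasl2 in each library. In Glutoborin B cells, 7.69% of those with Oasl2 and 3.92% of those without it had an Oasl1 UMI, and the intervals did not overlap. In Vehicle B cells the shares were 13.7% with Oasl2 and 10.2% without it, and the intervals overlapped. In Glutoborin classical monocytes Oas3 was found in 18.3% (9.52 to 30.4%) of cells with Oasl2 and 32.8% (21.8 to 45.4%) of those without. In Vehicle classical monocytes the shares were 55.2% (45.7 to 64.4%) with Oasl2 and 41.4% (29.8 to 53.8%) without it. The intervals overlapped in each library, so no direction could be told in these monocytes.

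RNA released from broken cells can enter every droplet, and several genes that mark other cells were also lower in Glutoborin B cells. Of 9 such indicator genes, 6 were at least 1.5-fold lower, beside 3.23% of all genes measured in B cells. Among the 6 were Lyz2, a lysozyme of myeloid cells, at 37.9 CPM in Glutoborin and 100.1 CPM in Vehicle (log2 ratio -1.40), and Jchain, the joining chain of secreted antibodies (-1.24). S100a8 (-1.28), S100a9 (-0.84), the T cell gene Cd3e (-0.72) and the haemoglobin gene Hbb-bs (-4.09, from 4 UMIs in Glutoborin and 53 in Vehicle) made up the rest of the 6, while Cd74 (0.10), Ighm (-0.06) and Igkc, which B cells themselves express, were near 0. The measured ratio of the family to Lyz2 differed between cell classes. There were 162 family UMIs per 100 Lyz2 UMIs in Glutoborin and 219 in Vehicle B cells. Classical monocytes, which express Lyz2 themselves (25678 CPM in Glutoborin, 21624 CPM in Vehicle), had 2.38 in Glutoborin and 5.43 in Vehicle. In CD4 T cells the values were 277 in Glutoborin and 276 in Vehicle, in regulatory T cells 324 in Glutoborin and 143 in Vehicle, and in NK cells 83.8 in Glutoborin and 92.9 in Vehicle. Set against S100a9, the order of the classes stayed the same in Vehicle. It changed in Glutoborin, where classical monocytes went from the lowest to the highest value. Per 100 S100a9 UMIs, B cells had 426 family UMIs in Glutoborin and 852 in Vehicle, and NK cells 209 in Glutoborin and 349 in Vehicle. Classical monocytes had 1671 in Glutoborin and 195 in Vehicle. Plasma cells had 3 family UMIs (5.48 CPM) in Glutoborin and 5 (25.9 CPM) in Vehicle. The indicators were lower in T and NK cells too, beside family ratios of -1.23 in CD4 T cells, -1.28 in CD8 T cells and -1.15 in NK cells. Lyz2 had a log2 ratio of -1.24 in CD4 T cells, -1.34 in CD8 T cells, -1.78 in regulatory T cells and -1.0 in NK cells. Igkc, an antibody light chain, had -1.10 in CD4 T cells, -1.12 in CD8 T cells, -0.94 in regulatory T cells and -1.25 in NK cells. Jchain had -2.26 in CD4 T cells, -1.71 in CD8 T cells and -2.05 in NK cells. How far free RNA lowered or raised the Oas ratios was not tested.

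The barcodes left out by the filters had a like gap. The family stood at 103 CPM in Glutoborin and 288 CPM in Vehicle among those with high mitochondrial content (log2 ratio -1.48) and at 92.9 CPM in Glutoborin and 290.1 in Vehicle among called doublets (-1.64).

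The other Oas genes behaved unevenly. Oas1c, a member of the Oas1 gene cluster, had 194 UMIs (7.47 CPM) in Glutoborin and 204 UMIs (10.1 CPM) in Vehicle B cells, a log2 ratio of -0.43 (interval -0.72 to -0.14) that does not overlap that of any of the 5 members there. Oas1g, a close copy of Oas1a, had 23 UMIs in Glutoborin and 70 in Vehicle classical monocytes (-1.18, interval -1.93 to -0.49), near the -1.26 of Oas1a. Of the 60-base words in the last 500 bases of the Oas1a transcript, 51.2% also occur in Oas1g, so the split of reads between this pair is uncertain. Oas2, Oasl1 and Oasl2 shared no such word with another gene, and Oas3 shared 0.227%.

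Beside the synthetases, Pde12, a phosphodiesterase that degrades 2-5A, had a log2 ratio of -0.15 (interval -0.34 to 0.04) in B cells. Abce1, an ATP-binding protein that recycles ribosomes, had -0.14 (interval -0.26 to -0.03).

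Sensors of foreign nucleic acid were in the same list of 11 genes matched in the files. In B cells 8 of the 11 were at least 1.5-fold lower, beside 3.23% of all genes measured there. None was higher by that fold, and the median log2 ratio was -0.74. Eif2ak2, the RNA-activated kinase PKR, had 27.6 CPM in Glutoborin and 76.0 CPM in Vehicle (-1.46). Ifih1, the RNA sensor MDA5, had a ratio of -1.55, Zbp1, a sensor of Z-form nucleic acid, -1.52, and Cgas, the DNA sensor, -1.33, while Mavs, the adaptor of the RNA sensors, had -0.04. Smaller differences were those of Adar, which edits double-stranded RNA (-0.74), Ddx58, the RNA sensor RIG-I (-0.64), and Tlr3, the endosomal sensor (-0.63), with Dhx58, a relative of these sensors, at -1.35. The counts were 5 of 9 measured in CD4 T cells, 5 of 10 in CD8 T cells and 5 of 9 in classical monocytes. They were 3 of 10 in NK cells, 2 of 6 in regulatory T cells, 2 of 8 in type 2 dendritic cells, 2 of 3 in nonclassical monocytes, 1 of 1 in neutrophils and 0 of 1 in mature dendritic cells. The share of all measured genes lower was 2.57% in CD4 T cells, 2.64% in CD8 T cells and 6.50% in classical monocytes. It was 7.04% in NK cells, 5.07% in regulatory T cells and 9.06% in type 2 dendritic cells. Nonclassical monocytes had 9.22%, neutrophils 14.0% and mature dendritic cells 9.59%.

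Upstream, the interferon receptor and its kinases were not lower in B cells. Ifnar1, a chain of the type I interferon receptor, had 51.3 CPM in Glutoborin and 43.5 CPM in Vehicle (log2 ratio 0.24, interval 0.11 to 0.36), and the other chain, Ifnar2, had a ratio of 0.12. The kinases Jak1 and Tyk2 had 0.14 and 0.04. Among the factors that carry the signal to the promoters, Stat2 had -1.16 and its partner Irf9 -0.29. Irf7, a factor that amplifies interferon production and whose mRNA Oasl1 restrains, had 69.4 CPM in Glutoborin and 225 CPM in Vehicle (-1.70). Usp18, a feedback inhibitor of the receptor, had the lowest ratio of the list (-2.16), between those of Oas2 and Oas3. Socs1, another feedback inhibitor, had -1.41 and Irf1 -0.61, whereas Irf8 had -0.41, Irf3 -0.06 and Irf5 0.18. Of these 13 receptor and factor genes, 5 were lower by the 1.5-fold limit in B cells, with a median log2 ratio of -0.29. On a wider list of type I interferon-induced genes, 57 of 68 were lower there (median -1.21), and the ratios of all 5 Oas members lay below that median. On a list of interferon gamma-induced genes, 26 of 33 were lower (median -1.08). Of all genes measured in B cells, 3.23% were lower by the same limit.

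**Figure D5:**
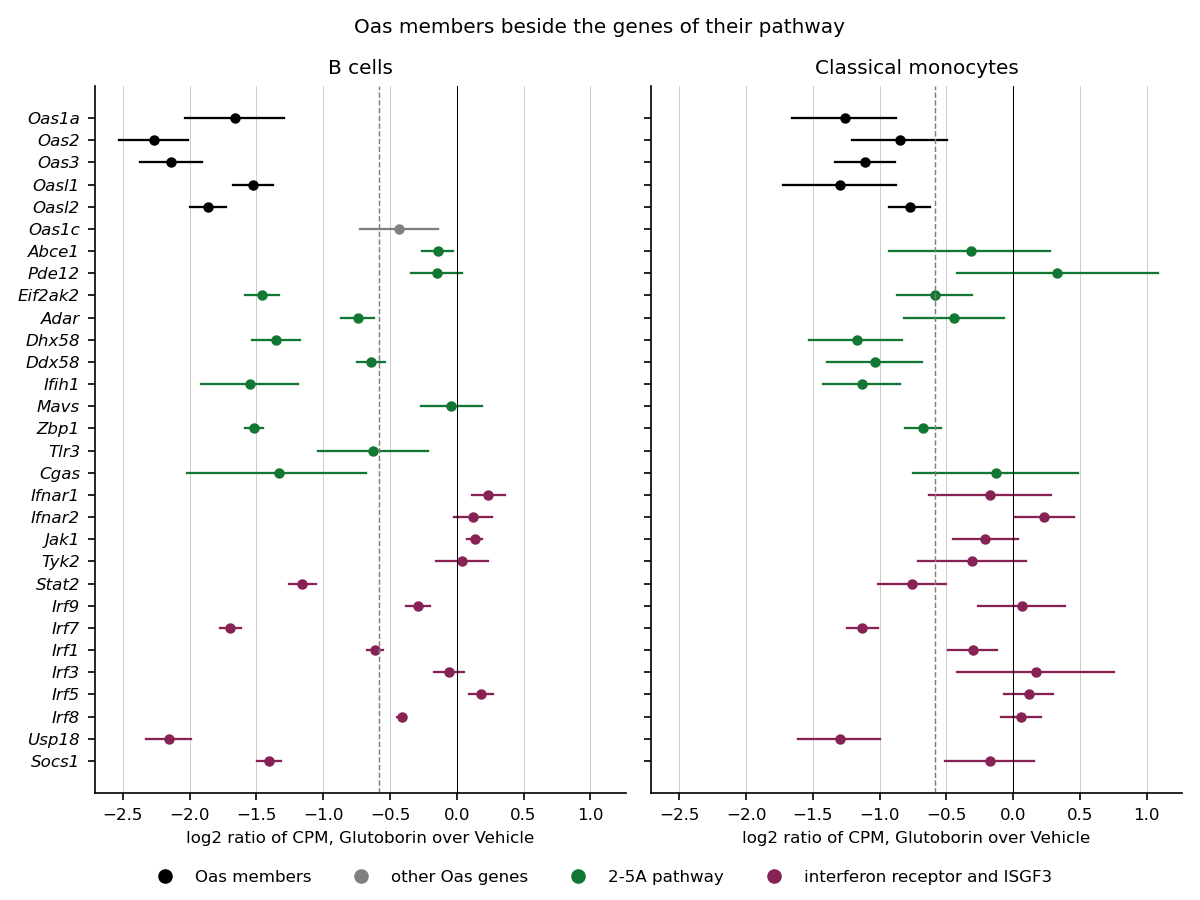
Log2 ratio of CPM, Glutoborin over Vehicle, in B cells (left) and classical monocytes (right) for the Oas members, other Oas genes, the 2-5A pathway with nucleic acid sensors, and the interferon receptor with its factors; points with at least 50 UMIs are shown, bars are exact 95% intervals and the dashed line marks 1.5-fold lower. Abce1, Pde12 and Mavs lie near 0 in B cells, while the members lie between -2.27 and -1.53.

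Across 16 profiles, 1 for each class with at least 50 cells in a library, the levels of the members were close to each other in pattern, with Pearson's r between 0.77 (Oas1a with Oasl1) and 0.96 (Oas2 with Oasl2). The genes most like the mean of the members, of 9118 compared on log2(CPM + 5), were Rsad2 (r = 0.96), which encodes the antiviral enzyme viperin, Nampt (0.95), an enzyme of NAD synthesis, Dck (0.95), a deoxynucleoside kinase, Slfn2 (0.94) and Irf7 (0.94). They were followed by Tmem184b (0.93), Ifitm3 (0.92), a membrane protein that blocks virus entry, Zbp1 (0.92), Tspan14 (0.91) and Samhd1 (0.91), an enzyme that breaks down deoxynucleotides. By single member, the 3 closest were Trafd1 (0.99), Atf3 (0.96) and Ifi44 (0.96) for Oas1a. They were Oasl2 (0.96), Slfn2 (0.94) and Slfn5 (0.94) for Oas2, and Slfn2 (0.96), Oas2 (0.96) and Rtp4 (0.95) for Oasl2. For Oas3 they were Rsad2 (0.93), Cebpb (0.92) and Dck (0.91), and for Oasl1 Trim25 (0.93), Cmpk2 (0.90) and Dck (0.88). The profiles share libraries and depth, so these values describe likeness across classes and treatments together.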

How the data were processed

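Per the file headers, Cell Ranger 6.1.2 wrote the matrices that the authors deposited, 1 for Glutoborin and 1 for Vehicle. The deposited values are raw counts of UMIs per gene and barcode, made by Cell Ranger per the file headers and not scaled. The submitters' processing notes name version 6.0.1 of Cell Ranger, version 4.3.0 of Seurat and mm10 instead, and no release of the annotation is given in the sources used here. Cells with at least 300 genes, 500 UMIs and under 10% mitochondrial UMIs were kept, and doublets called by Scrublet within scanpy 1.11.5 were removed, 347 (3.75%) in Glutoborin and 195 (2.92%) in Vehicle. Clusters (Leiden, resolution 1.5, 2000 variable genes without interferon-induced and cell cycle genes, 30 components) were named from markers of 23 classes. Outside the T cell classes, 3 or more markers had to be detected. T cell clusters were named by single genes found in at least 40% of cells, such as Foxp3 for regulatory T cells. Cd8a named CD8 and Cd4 named CD4 T cells, each with the other gene in under 20% of cells. Naming limits, and some of the interferon genes left out of clustering, were set after clusters were seen, and names rebuilt in this way may differ from the study's own.

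UMIs were summed per class and library and divided by the class total. Sums carry exact Poisson intervals, their ratios exact conditional binomial ones and shares exact binomial (Clopper-Pearson) ones, computed in scipy 1.17.1. A gene was measured in a class where both libraries together had 50 UMIs or more. The members, gene lists and rules were chosen with earlier results of these data known; the named genes were the members, the listed pathway genes and the genes most like the members in pattern (10 for their mean, 3 for each). The ratio intervals were tested on simulated Poisson counts, which hold counting error alone and no spread between cells or animals. Some listed genes are not reported here, and the list counts leave them out.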

Additional observations from a re-analysis of the deposited data

How the results depend on the processing

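No paired analysis was possible because each group is 1 library. Of 244 member ratios recomputed under the alternatives, 243 stayed below 0 and 239 stayed within the interval of the reported value. Thinning left no ratio for Oas2 in NK cells. The exception in direction was Oas1a in CD4 T cells with cells thinned to 2000 UMIs, 0.45 from 15 UMIs in Glutoborin and 8 in Vehicle. The family ratio of CD4 T cells became -1.42 with a mitochondrial limit of 25% and -1.43 at Leiden resolution 0.8, and that of CD8 T cells -1.44 at that resolution. Without cluster B11, an alternative chosen after seeing the data, the B cell ratio was -1.72. Without cluster T17, likewise chosen after seeing the data, the ratio of T cells with no finer name was -1.48, against -2.41 with it. Members at least 1.5-fold lower numbered 3 in CD8 T cells and 3 in classical monocytes after thinning, and 3 in classical monocytes at a fold of 2. In regulatory T cells they numbered 0 after thinning, 0 without the 10 cells with the most family UMIs, 2 with no minimum count and 0 at a fold of 2. In NK cells they numbered 1 with the limit of 25%, 0 after thinning, 0 without the 10 cells, 4 with no minimum count and 1 at a fold of 2. The share of all genes passing each altered rule is not given here, so these counts have no background beside them. Thinning and leaving out cells lower the UMIs available, so that fewer members reach 50 UMIs. After thinning, no member reached 50 UMIs in regulatory T or NK cells, so none could be called there. The cause of the other shifts was not tested. With 1 library per group, the spread between mice is unknown, and depth limits regulatory T cells, NK cells and the 6 smaller classes most.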
